A study of Mus musculus with 9 samples.

Results

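The 3 control embryos described here are the reference group of an RNA sequencing experiment on the striatum of 9 mouse embryos at E17.5, near the end of gestation. They were chosen by their genotype label, Control, and each is a single embryo whose dissected striatum was read as 1 library. The other 6 embryos carried conditional deletions of the transcription factor Ebf1 in the striatum, 3 labelled Dlx5/6::Cre;Ebf1fl/- and 3 labelled Islet1Cre;Ebf1fl/-. All came from matings of Ebf1+/- males that carried a Cre, either Dlx5/6::Cre or Islet1Cre, with females homozygous for a floxed Ebf1 allele. Each embryo, controls included, therefore received a floxed allele from its mother. The study used heterozygous embryos without a phenotype as controls, and the sources used here do not give which of them carried a Cre or a null allele. The strain is labelled C57BL/6, whereas the Islet1Cre line was kept on a mixed background. Controls 1 and 2 have embryo codes that begin with IE, as do all 3 Islet1Cre;Ebf1fl/- embryos, and control 3 has a code that begins with D, as do all 3 Dlx5/6::Cre;Ebf1fl/- embryos. Per the study, Dlx5/6::Cre recombines in spiny projection neurons (SPN) of the subventricular zone and mantle, and Islet1Cre in differentiated direct pathway SPN. It adds that Dlx5/6::Cre also acts in all interneurons and Islet1Cre in the cholinergic ones.

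The striatum is the input nucleus of the basal ganglia. Nearly all of its neurons are SPN, GABAergic cells born in the lateral ganglionic eminence (LGE) of the embryo. SPN of the direct pathway (dSPN) express the dopamine receptor Drd1 and the peptide precursor Tac1, whereas SPN of the indirect pathway (iSPN) express Drd2, the adenosine receptor Adora2a and the enkephalin precursor Penk. Late in gestation these cells are postmitotic and extend their axons, while progenitors and glial precursors remain along the ventricle.

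Counts on genes totalled 32651412, 37366666 and 31677448 in controls 1, 2 and 3. Control 1 differed from the other controls over most genes more than these did from each other, and control 3 held both female and male RNA, as described below with the genes concerned. Levels are given as CPM, the count of a gene scaled to the total over all genes of the library. Where genes are compared with each other, CPM were divided by the length of the gene's exons in kilobases (CPM per kb). Of 44886 genes in the annotation, 24314 had a count in at least 1 control and 13482 reached 1 CPM in all 3, among them 12659 protein-coding genes. A level of 100 CPM in every embryo was reached by 2367 genes and a level of 1000 CPM by 46. The 10 genes with the most counts took 4.23%, 4.27% and 4.20% of the counts of controls 1, 2 and 3, and the 1000 highest took 45.2%, 45.5% and 45.4%. Protein-coding genes held 98.1% ± 0.26 of the counts (SD, n = 3).

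The 8 marker genes of the striatum were present at high levels in every control embryo. Meis2, a homeobox factor of the LGE and its neurons, was the highest of them by CPM, at 841 in control 1, 1067 in control 2 and 1013 in control 3. Bcl11b, which encodes Ctip2, a zinc finger factor of SPN, was at 777, 867 and 806 CPM. Foxp1, a forkhead factor of SPN, was at 609, 636 and 706 CPM. Their coefficients of variation (CV, the SD as a percentage of the mean) were 12.1%, 5.65% and 7.69%. Ebf1, the dSPN factor that the study deleted in the other groups, was the most variable of the 8, at 269, 466 and 318 CPM, a CV of 29.1%.

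Gad1 and Gad2, the enzymes that make GABA, were among the steadiest markers. Gad1 was at 246, 260 and 275 CPM and Gad2 at 201, 212 and 211 CPM. Adora2a was at 169, 155 and 181 CPM and Penk at 159, 133 and 168 CPM. Control 2 was the lowest for both, as for 4 of the 7 iSPN genes measured, against 33.7% of all tested genes. It was the highest for Ebf1, as for 3 of the 12 dSPN genes listed, against 28.3% of all tested genes. None of the 8 differed among the embryos at an adjusted p below 0.05 in edgeR's quasi-likelihood test of differences among the 3 controls, in which all 8 had an adjusted p of 1. In that test each control has no replicate of its own, and the spread is taken from the mutant groups.

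**Figure D1:**
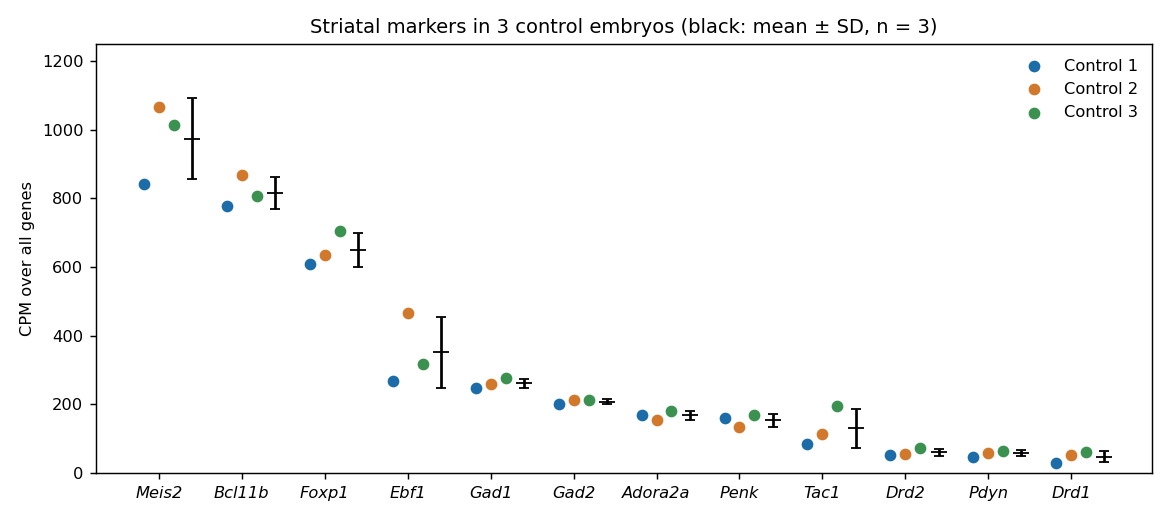
Level in CPM (vertical axis) of the 8 marker genes and of Tac1, Drd2, Pdyn and Drd1 in each of the 3 control embryos (coloured points), with the mean and SD in black. Meis2, Bcl11b and Foxp1 are at 609 CPM or more in every embryo, whereas Ebf1, Tac1 and Drd1 spread the most for their level; CPM are not corrected for gene length, so only embryos are compared.

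Per length of exon the 8 markers ranked from 391 to 1575 among 21579 protein-coding genes. Bcl11b stood at 101 ± 5.69 CPM per kb (SD, n = 3), rank 391, followed by Penk at 93.8 ± 11.1 (rank 421), Meis2 at 80.8 ± 9.81 (rank 547), Adora2a at 54.9 ± 4.21 (rank 888) and Foxp1 at 47.3 ± 3.63 (rank 1069). Ebf1, Gad2 and Gad1 were close to each other, at 36.0 ± 10.5, 35.4 ± 1.07 and 34.1 ± 1.88 CPM per kb, differences that were smaller than the spread of Ebf1 between embryos. The short Penk gene (chromosome 4) thus ranked above Foxp1, which has more than 4 times its CPM but much longer exons.

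Among nuclear protein-coding genes the highest per length was Tuba1a, the main alpha-tubulin of young neurons, at 2870 ± 192 CPM per kb. It was followed by the ribosomal stalk protein Rplp1 at 2390 ± 74.3, the elongation factor Eef1a1 at 2336 ± 60.2, the beta-tubulin Tubb2b at 1601 ± 113, the imprinted proteolipid Nnat at 1509 ± 29.8, the ribosomal protein Rps15 at 1392 ± 24.3 and the neuronal beta-tubulin Tubb3 at 1341 ± 21.4. Of the windows of 75 bases in the transcripts of Tuba1a, 68.3% also occur in transcripts of other genes, against 0% for Tubb3. Reads that matched more than 1 position were removed by the authors, so the level of Tuba1a rests on the rest of its sequence.

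The other 3 of the 10 highest were predicted genes whose spans take in their neighbours, Gm37013, Gm37388 and Gm20388. Gm20388 had 5463 ± 92.4 CPM. The 73 genes that lie within its span on the same strand, Tubb3 among them, together had 92.5% of its count. Across the annotation, 77 pairs were found in which a gene with at least 3000 counts over the 3 controls lies within the span of another gene on the same strand and shares no exon base with it. The outer gene had at least the count of the inner gene in 77 of 77 such pairs, against 60 of 97 pairs on opposite strands. The counts thus behave as reads over the whole span of a gene, introns included, on its own strand, and a gene that encloses another carries the reads of both.

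Few of the marker genes were touched by this. Among 193 listed genes with a count, 4 enclosed genes that amount to more than 1% of their own count, and 2 to more than 10%. Chat, the enzyme of acetylcholine synthesis, encloses Slc18a3, the vesicular acetylcholine transporter, which had 66.2% of its count. Cx3cr1, the fractalkine receptor of microglia, encloses Gorasp1, a Golgi protein, which had 75.7% of its count. Levels per length of exon, which leave out introns from the length, are comparable between genes only as far as intron reads are few. Epo, the erythropoietin gene, was at 874, 822 and 836 CPM, close to the 841, 787 and 800 CPM of Gnb2, a G protein subunit whose span it overlaps on the same strand, so the level of Epo cannot be told apart from that of Gnb2. The 12 Pcdhga genes, which overlap each other and share their last exons, had means from 749 to 921 CPM, and the cadherin and protocadherin total of 21318 CPM counts such reads for each of them.

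By summed level, ribosomal proteins were the highest of 32 gene families and Hox factors the lowest. The 96 genes of cytosolic ribosomal proteins together had 38841, 37309 and 38633 CPM, 3.83% ± 0.083 of all counts, and 91 of them reached 1 CPM in all 3 embryos. The 17 tubulins summed to 16897 ± 549 CPM and the 4 stathmins, which bind tubulin dimers, to 3349 ± 43.0 CPM, with Stmn3 the highest at 590 CPM per kb. All 46 subunits of respiratory chain complex I and all 17 of ATP synthase reached 1 CPM, with sums of 3743 ± 37.1 and 4442 ± 134 CPM. The highest member of the proteasome was Psmb6 at 125 CPM per kb, of ATP synthase Atp5b at 306, of complex I Ndufa1 at 169, of cytochrome oxidase Cox6a1 at 402, of the 14-3-3 proteins Ywhae at 427, of the actins Actb at 685 and of the histones H3f3b at 220. Families of cell surface proteins were led by the axon guidance receptor Plxnd1 at 64.3 CPM per kb, the ephrin Efnb3 at 51.6, the collagen Col9a3 at 28.2, the glutamate receptor Grik5 at 59.5 and the synaptotagmin Syt5 at 133. Ion channel families were led by the calcium channel subunit Cacng4 at 115, the sodium channel subunit Scn3b at 26.4 and the potassium channel Kcnh4 at 19.8. The 94 potassium channel genes, of which 64 reached 1 CPM, had a median of 1.35 CPM per kb and the 18 sodium channel genes a median of 1.45, against 176 for the ribosomal proteins. At the low end, the 1050 olfactory receptor genes summed to 1.501 ± 0.271 CPM, the 39 Hox genes to 0.0938 ± 0.0947 CPM, and none of either family reached 1 CPM in all embryos. Hox genes pattern the hindbrain and spinal cord, and olfactory receptors act in the nose.

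The genes of the mitochondrial genome were unevenly counted. mt-Cytb, mt-Co1 and mt-Nd1 had 4326 ± 493, 4233 ± 146 and 2022 ± 282 CPM, whereas mt-Co2, mt-Atp8 and mt-Nd4l are listed at 0 in all 3 embryos and mt-Co3 and mt-Atp6 at no more than 0.0613 CPM. All belong to complexes that every cell uses, so that a gene listed at 0 is not shown to lack RNA, and the mitochondrial total of 13508 ± 999 CPM rests on 7 of the 13 protein-coding genes.

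Within families of transcription factors a few members were far above the others, and Mef2d led the Mef2 factors at 35.9 CPM per kb. Ebf1 was the only member of its family above 10 CPM per kb, at 36.0 ± 10.5, followed by Ebf4 at 4.53 ± 0.771, while Ebf2 and Ebf3 stayed below 0.4 CPM in every embryo. Among the Dlx factors, which specify GABAergic neurons of the ventral forebrain, Dlx5 stood at 32.0 ± 7.69 CPM per kb, Dlx6 at 27.3 ± 2.29, Dlx1 at 20.9 ± 4.12 and Dlx2 at 15.8 ± 4.03, while Dlx3 and Dlx4 had no count. The order of Dlx5 and Dlx6 did not exceed their spread. Foxp4 was the highest Fox factor at 69.3 ± 4.38 CPM per kb, ahead of Foxp1. Sox4 and Sox11, factors of newly born neurons, led the Sox family at 153 ± 13.3 and 63.9 ± 13.01 CPM per kb, although 54.6% of the exon bases of Sox4 are also exon of Gm26735 on the opposite strand. Meis2 led the Meis and Pbx factors, ahead of Pbx3 at 42.8 ± 13.3 and Meis3 at 42.6 ± 2.64. Of the 8 Lhx factors, 3 reached 1 CPM in all embryos, with Lhx6 and Lhx8, factors of interneurons, at 15.4 ± 0.628 and 10.4 ± 2.90 CPM per kb.

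Lists of marker genes for each cell type placed immature neuron and SPN genes above glial, vascular and meningeal cells. By the median of its members, the immature neuron list was the highest, at 187 CPM per kb, followed by the erythroid list at 54.98, the SPN genes shared by both pathways at 43.1, the dSPN list at 16.6, the iSPN list at 13.8 and the LGE progenitor list at 11.2. Radial glia and astrocyte genes had a median of 10.3, oligodendrocyte lineage genes 3.65, endothelial genes 2.78, microglial genes 2.21, cortical excitatory genes 1.13, meningeal genes 0.119 and choroid plexus genes 0.0827. Of the other lists, matrix genes had a median of 23.8, immediate early genes 6.96, striosome genes 5.68, modulatory receptors 3.71, mural genes 3.70, interneuron genes 3.30, neuropeptide precursors 2.67, cell division genes 2.26, thalamic genes 1.06 and transmitter genes 1.00. Lists differ in how many of their genes are specific and abundant, and a median per length is not a share of cells. Fewer cells of a type and less RNA per cell cannot be told apart in dissected tissue.

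**Figure D2:**
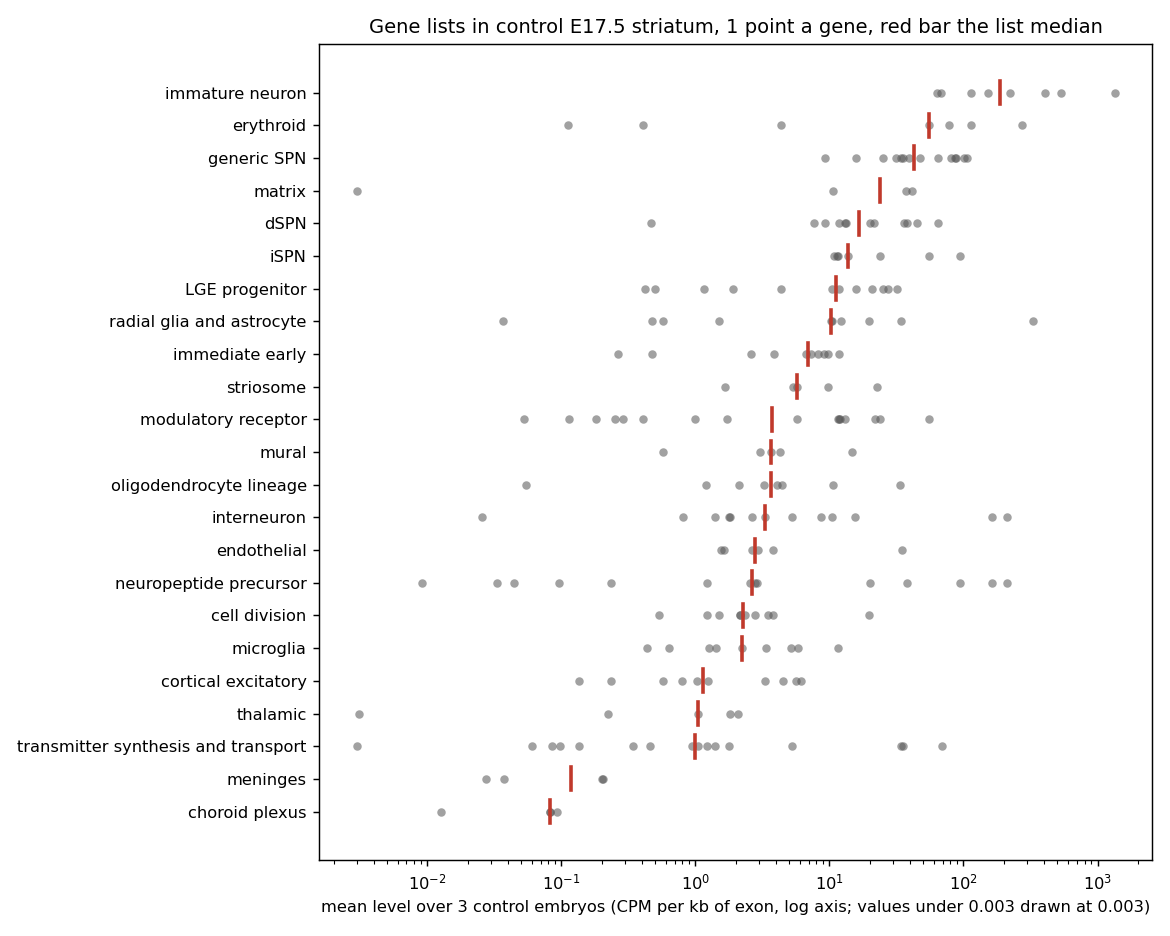
Mean level in CPM per kb of exon (horizontal log axis) of each listed gene (grey points) by gene list, with the list median as a red bar, over the 3 control embryos. Immature neuron genes lie above 60 CPM per kb, the shared SPN genes between 9.33 and 106, and choroid plexus genes below 0.1.

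All 14 shared SPN genes, all 12 dSPN genes and all 7 measured iSPN genes reached 1 CPM in every embryo. Besides the markers above, the shared list held Gng7, a G protein subunit of striatal dopamine signalling, at 106 ± 15.5 CPM per kb, and Ppp1r1b (DARPP-32), a phosphatase inhibitor controlled by dopamine, at 88.2 ± 14.5. Its lowest members were the adenylyl cyclase Adcy5 at 15.7 ± 0.878 and Rgs9, a regulator of G protein signalling, at 9.33 ± 0.527. Gnal, the G protein alpha subunit that links dopamine and adenosine receptors to Adcy5, was at 64.5 ± 5.74 CPM per kb.

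Among dSPN genes the axon guidance receptor Plxnd1 was the highest, at 536, 483 and 389 CPM or 64.3 ± 10.2 CPM per kb. Isl1, the homeobox factor of dSPN, followed at 172, 205 and 155 CPM (44.7 ± 6.44 CPM per kb), then Tac1 at 38.1 ± 16.8 and Ebf1. The lowest were the calcium-dependent factor Mef2c at 7.68 ± 0.754 and Eya1 at 0.470 ± 0.0941 CPM per kb. Drd1 was at 28.2, 53.1 and 60.0 CPM and differed more than 2-fold between control 1 and control 3. Tac1, the precursor of substance P, was at 83.4, 112 and 194 CPM, again with control 1 the lowest and control 3 the highest. Pdyn, the dynorphin precursor, kept the same order with smaller steps, at 47.7, 59.5 and 65.3 CPM.

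The dopamine receptor of iSPN was higher per length than that of dSPN, and so was the enkephalin precursor than Tac1. Drd2 was at 53.6, 55.6 and 71.8 CPM. Per kb of exon, Drd2 was 2.71, 1.49 and 1.70 times the level of Drd1 in controls 1, 2 and 3, and Penk was 3.96, 2.47 and 1.81 times the level of Tac1. All 3 embryos thus had the iSPN gene above the dSPN gene in both pairs per kb of exon. By CPM, Drd2 was also above Drd1 in all 3, whereas Penk was above Tac1 in controls 1 and 2 and below it in control 3 (168 against 194). Intron reads count in these levels but not in the length, and Drd2 has 2547 exon bases against 3628 for Drd1, in a longer span. The CVs were 35.6% and 44.1% for Drd1 and Tac1 against 16.5% and 11.8% for Drd2 and Penk. Adora2a was 2.34 ± 0.264 times as high as Drd2 per length. The lowest iSPN genes were Gpr6, an orphan receptor, at 11.5 ± 2.91 CPM per kb, the receptor phosphatase Ptprm at 11.4 ± 1.27 and Six3, a homeobox factor, at 10.9 ± 1.23, and the iSPN factor Sp9 was at 78.4, 76.1 and 54.96 CPM.

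Genes of both striatal compartments, the striosomes and the surrounding matrix, were present. Of the striosome list, Lypd1 was the highest at 22.5 ± 4.07 CPM per kb, the nuclear receptor Nr4a1 was at 9.75 ± 0.887, and Oprm1, the mu opioid receptor that marks striosomes, was at 38.6, 49.8 and 48.6 CPM (5.68 ± 0.768 CPM per kb). Of the matrix list, Epha4 was at 285, 374 and 345 CPM, Cdh8 at 267, 263 and 332 CPM, and Calb1, the calbindin of mature matrix neurons, at 41.2, 55.2 and 57.1 CPM. Rasgrp2, a matrix gene of the adult striatum, had no count in any control, which allows up to 3 counts in a library of at least 31677448.

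Of the 14 neuropeptide precursors, 5 were far above the other 9. Npy was the highest at 212 ± 38.9 CPM per kb and Sst followed at 162 ± 5.22. These peptides mark the same class of striatal interneurons, which are rare cells. Penk, Tac1 and Pdyn of the SPN came next, as given above. The remaining 9 precursors stayed under 3 CPM per kb, from galanin (Gal) at 2.87 ± 0.175 and neurotensin (Nts) at 2.79 ± 0.984 to Adcyap1 at 0.0332 ± 0.0288 and Vip at 0.00919 ± 0.00928. Sst was among the steadiest of them, at 115, 115 and 121 CPM, whereas Npy was at 112, 102 and 145 CPM.

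The sequence just before an annotated transcription start is shown for the peptide genes that lead this ranking. Sequences were found in RefSeq promoters (GRCm38.p6) for 4 of the 5, Npy, Sst, Tac1 and Pdyn, and Penk was not among them. Each line gives the 120 bases before the annotated start, 5′ to 3′ on the strand of the gene, with any copy of TGACGTCA, the cyclic AMP response element, or of TATAAA on either strand in capitals.
Npy (chr6:49822590-49822709, plus strand): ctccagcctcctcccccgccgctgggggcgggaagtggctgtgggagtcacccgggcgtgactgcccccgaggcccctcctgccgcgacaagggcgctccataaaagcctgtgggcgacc
Sst (chr16:23890845-23890964, minus strand): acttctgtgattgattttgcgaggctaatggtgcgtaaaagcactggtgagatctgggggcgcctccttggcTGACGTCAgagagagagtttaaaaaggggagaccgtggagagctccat
Tac1 (chr6:7554941-7555060, plus strand): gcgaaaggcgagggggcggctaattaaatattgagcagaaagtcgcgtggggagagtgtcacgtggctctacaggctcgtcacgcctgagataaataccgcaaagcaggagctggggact
Pdyn (chr2:129699939-129700058, minus strand): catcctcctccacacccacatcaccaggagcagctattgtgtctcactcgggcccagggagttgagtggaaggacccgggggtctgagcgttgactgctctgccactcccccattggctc

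Sst alone of the 4 held TGACGTCA, at positions -48 to -41 from the start, a motif found in 1.24% of the 32851 promoter windows of this length. TATAAA was in none of the 4 and in 6.34% of all windows. These letters describe the sequence only. The annotated starts of Sst and Tac1 lie 114 and 182 bases inside the gene from its 5′ end in GENCODE, and that of Pdyn lies 94 bases outside it. The window of Tac1 thus lies wholly within the GENCODE gene and that of Sst mostly so.

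Among transmitter genes, those of GABA were the highest. Slc32a1, the vesicular GABA transporter, was the highest of its list at 69.0 ± 9.60 CPM per kb, followed by Gad2 and Gad1, although 24.9% of its exon bases are also exon of Gm14205 on the opposite strand. Slc32a1 was 47.2, 69.0 and 89.3 times as high per length as Slc17a6, the vesicular glutamate transporter of thalamus and midbrain, in controls 1, 2 and 3. Slc17a7, the cortical vesicular glutamate transporter, was at 1.19, 0.803 and 0.189 CPM. The cholinergic genes Chat, with the reads of Slc18a3 included, and Slc18a3 were at 6.54 ± 1.47 and 4.31 ± 1.25 CPM, and Slc17a8, the vesicular glutamate transporter that cholinergic interneurons also carry, was at 4.47 ± 1.33 CPM. Th, the rate-limiting enzyme of dopamine synthesis, was at 9.22, 13.6 and 14.7 CPM, while the dopamine transporter Slc6a3 stayed under 0.33 CPM. The glycine transporter Slc6a5 had no count.

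Of the modulatory receptors, 11 of 16 reached 1 CPM in all embryos. Adora2a was the highest per length, followed by Drd2 and the adenosine receptor Adora1 at 21.9 ± 1.17 CPM per kb, which did not differ beyond their spread, and by Drd1. The muscarinic receptors fell in the order Chrm4 at 11.9 ± 0.988, Chrm1 at 11.6 ± 0.885, Chrm2 at 1.73 ± 0.481, Chrm3 at 0.407 ± 0.0532 and Chrm5 at 0.254 ± 0.140 CPM per kb, of which Chrm4 and Chrm1 did not differ beyond their spread. The cannabinoid receptor Cnr1 was at 77.8, 94.5 and 59.6 CPM. The lowest receptors were Oprk1, the kappa opioid receptor, at 0.114 ± 0.0659 CPM per kb and Drd3, the dopamine receptor of the ventral striatum, at 0.0523 ± 0.0481.

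Immediate early genes, which respond to activity, were at low to moderate levels. Jun was the highest at 11.8 ± 2.51 CPM per kb, followed by Nr4a1, Junb at 9.17 ± 0.608 and Arc at 8.27 ± 0.255. Arc, which acts at synapses, was at 26.0, 24.4 and 25.4 CPM and so among the steadier genes, whereas Npas4 was at 38.4, 18.1 and 26.3 CPM. Fosb and Egr2 were the lowest, at 0.477 ± 0.146 and 0.264 ± 0.0411 CPM per kb.

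Most interneuron genes were present, and Pvalb was near 0. Lhx6 was at 75.3, 76.4 and 70.7 CPM and Nkx2-1, a factor of the medial ganglionic eminence, at 22.7, 34.0 and 17.6 CPM, while Nos1 was at 33.5, 22.3 and 32.4 CPM. Pvalb, the parvalbumin of mature fast-spiking interneurons, had 0, 0.0803 and 0 CPM. The 3 lowest of the 12 members at 1 CPM or more in the mean were Slc5a7, the choline transporter, Chat and Slc18a3, from 0.805 to 1.79 CPM per kb.

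The progenitor genes ranged widely, with Nes, a filament of neural progenitors, at 85.5, 70.8 and 72.0 CPM and Sox2, a factor of neural stem cells, at 54.5, 55.8 and 45.4 CPM. The LGE factor Gsx2 was at 1.90, 2.19 and 1.70 CPM, far under Dlx5, which was 27.8 ± 7.23 times as high as Gsx2 per length. Mki67, the proliferation antigen, was at 25.3, 24.8 and 15.2 CPM and Top2a, a topoisomerase of dividing cells, at 32.0, 34.5 and 27.0 CPM. All 10 cell division genes were lowest in control 3, against 33.1% of all 16368 genes tested, but none of the 10 passed the test of differences among the controls. Their summed level was 183, 186 and 147 CPM.

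Genes of radial glia and of oligodendrocyte precursors were present, and Gfap and Mog, genes of mature glia, were near 0. Fabp7, a lipid-binding protein of radial glia, was at 449, 391 and 399 CPM or 330 ± 25.0 CPM per kb, the highest gene of any glial list. Sparcl1 and Vim followed at 34.2 ± 5.63 and 19.8 ± 1.75 CPM per kb. Gfap, the filament of mature astrocytes, was at 0.214, 0 and 0.253 CPM and S100b at 0.706 ± 0.130 CPM. Of the oligodendrocyte lineage, Olig1 was at 33.8 ± 7.05 and Pdgfra, the receptor of precursors, at 4.07 ± 0.288 CPM per kb, whereas Mog, a protein of finished myelin, was at 0.0613, 0.187 and 0.0316 CPM. Mbp, whose locus encodes myelin basic protein and also transcripts of other cells, was at 36.7, 37.5 and 38.7 CPM.

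Blood, vessels and microglia were measurable in every embryo. Cldn5, a tight junction protein of endothelium, was at 56.3, 41.9 and 49.1 CPM and Cx3cr1, most of whose count equals that of the enclosed Gorasp1, at 56.0, 51.8 and 48.8 CPM. C1qb, a complement subunit made by microglia, was at 6.80, 6.29 and 6.09 CPM. All 9 microglial genes reached 1 CPM, the lowest by CPM being Tmem119 at 1.29, 1.36 and 1.77 CPM. Rgs5, a gene of pericytes, was at 67.6, 58.9 and 75.1 CPM. The choroid plexus genes summed to 1.34 ± 0.334 CPM with Ttr, their defining gene, at 0.0985 ± 0.0640 CPM. The meningeal collagens Col1a1 and Col1a2 were at 1.33 ± 0.202 and 2.49 ± 0.674 CPM. Lhx9, a thalamic factor, had at most 0.0316 CPM.

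Control 1 stood somewhat apart from the other controls over most genes. The median absolute difference between embryos over the 16368 tested genes was 0.192 on the log2 scale between controls 1 and 2, 0.195 between controls 1 and 3, and 0.113 between controls 2 and 3. More than 2-fold differences were found for 674, 686 and 471 genes in these pairs. Pearson's r of log2 CPM across genes, which are not independent replicates, ran from 0.987 to 0.990. The counts of each pair differed beyond sampling noise (chi-square over its degrees of freedom, 8.70 to 21.3), and each embryo was counted as a separate sample. The CV fell with level, from a median of 19.0% for genes between 1 and 5 CPM to 6.77% between 20 and 100 CPM and 4.56% above 1000 CPM.

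Among the listed genes at a mean of 5 CPM or more, the steadiest was Stmn2, a stathmin of growing axons. It had a CV of 1.43%, with 1225, 1258 and 1229 CPM, followed by the RNA-binding protein Elavl3 at 1.55%, Tubb3 at 1.59%, Gap43 at 2.31% and Mbp at 2.76%. Among the most variable were Xist and the Y-linked Kdm5d, Eif2s3y and Ddx3y, with CVs from 104% to 157%. The median CV was 15.1% for these 134 listed genes and 7.32% for all 11320 genes at that level.

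**Figure D3:**
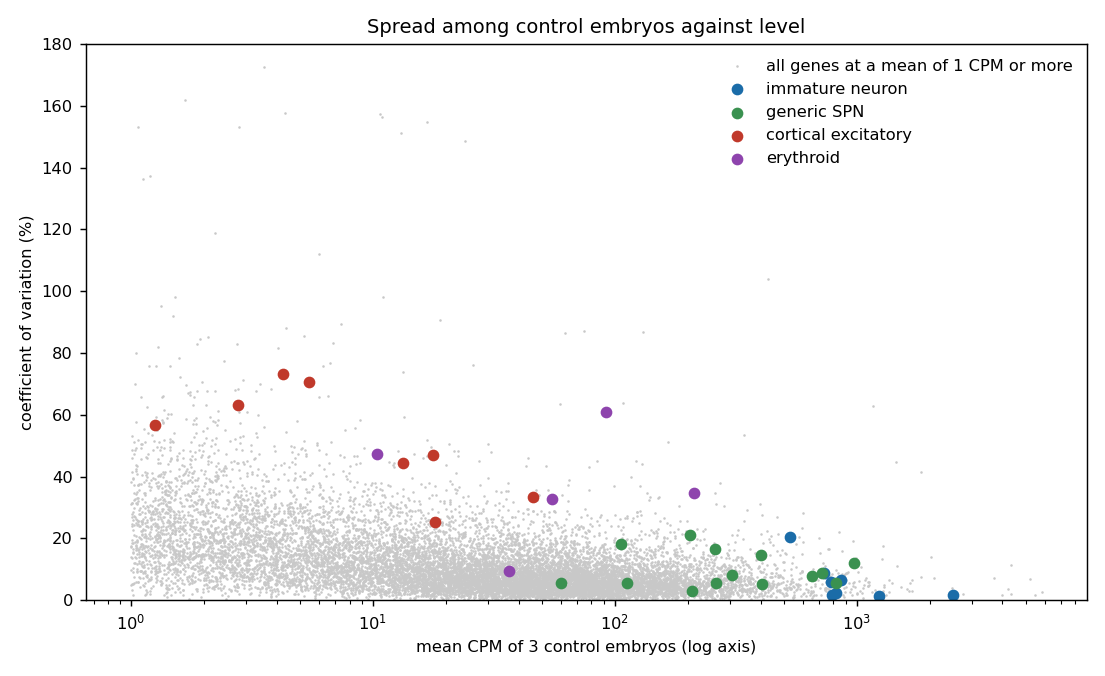
CV among the 3 control embryos (vertical axis, %) against mean CPM (horizontal log axis) for all genes at 1 CPM or more (grey) and for 4 gene lists (colours). Cortical excitatory genes lie between 25.3% and 73.2%, above most genes of their level, while 7 of the 8 immature neuron genes lie under 10%.

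Across all tested genes, 3 differed among the control embryos at an adjusted p below 0.05 in edgeR's quasi-likelihood test, 0.0183% of 16368, against 548 at an unadjusted p under 0.05. They were Tuba1c, the pseudogene Rpsa-ps10 and Xist. DESeq2 called 23 genes in the same comparison. The 548 are fewer than a 0.05 share of the 16368 genes, the share met where nothing differs and the spread is right. The spread came from the mutants. Their median SD of log2 CPM was 0.176 in Dlx5/6::Cre;Ebf1fl/- and 0.144 in Islet1Cre;Ebf1fl/-, against 0.144 in controls. A gene that did not pass is thus not shown to be even among the controls. With control 3 set against controls 1 and 2, 2 genes were called (0.0122%), Tuba1c and Rpsa-ps10, and 315 had an unadjusted p under 0.05. Contrasts of control 1 and of control 2 against the other controls were added after the data were seen. They had 1150 and 304 genes at an unadjusted p under 0.05. In them, 3 genes were called for control 1 (0.0183%) and 5 for control 2 (0.0305%). The called genes were Rpsa-ps10, Xist and Gm27733 for control 1, and the same 3 with Tuba1c and Gm27927 for control 2. Gm27733 and Gm27927 lie within Xist on the same strand and so repeat its reads.

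Xist, the RNA that coats the inactive X chromosome of female cells, was at 886 CPM in control 1, 0.107 in control 2 and 396 in control 3. The Y-linked genes ran the other way in controls 1 and 2. Eif2s3y was at 0.0306, 46.5 and 3.60 CPM, Kdm5d at 0.0306, 35.7 and 3.38 CPM, and Ddx3y at 0.0306, 30.1 and 1.96 CPM. Control 3 thus held both Xist and Y-linked RNA, the 4 Y-linked genes summing to 7.78% of their level in control 2. The library labelled Islet1Cre;Ebf1fl/- replicate 3 also held both, with Xist at 245 and the 4 Y-linked genes at 82.7 CPM, while the other 5 mutant libraries had Xist from 347 to 611 CPM and at most 0.0482 CPM of the 4 Y-linked genes. What gives both kinds of RNA in a library labelled as a single embryo was not tested.

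Tuba1c, an alpha-tubulin, was at 3.71, 3.16 and 65.1 CPM in controls 1, 2 and 3, and followed the prefix of the embryo code in all 9 embryos. The 4 embryos with a D code had from 56.8 to 69.6 CPM and the 5 with an IE code from 2.72 to 3.71. The log2 difference of control 3 from controls 1 and 2 was 4.27 (edgeR's quasi-likelihood test, adjusted p = 9.0e-05). Rpsa-ps10, a processed pseudogene of a ribosomal protein, was at 208, 184 and 0.537 CPM in the controls and at no more than 0.666 CPM in any of the 6 mutants, so that it set controls 1 and 2 apart from all other embryos, IE codes included. Of the 75-base windows of these genes, 48.9% and 75.2% occur in transcripts of other genes. The predicted gene Gm15920, chosen after its values were seen, was at 7.75, 7.73 and 0.0631 CPM in the controls, at 2.78 to 7.004 CPM in the Islet1Cre;Ebf1fl/- embryos and at no more than 0.184 CPM in the Dlx5/6::Cre;Ebf1fl/- embryos.

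**Figure D4:**
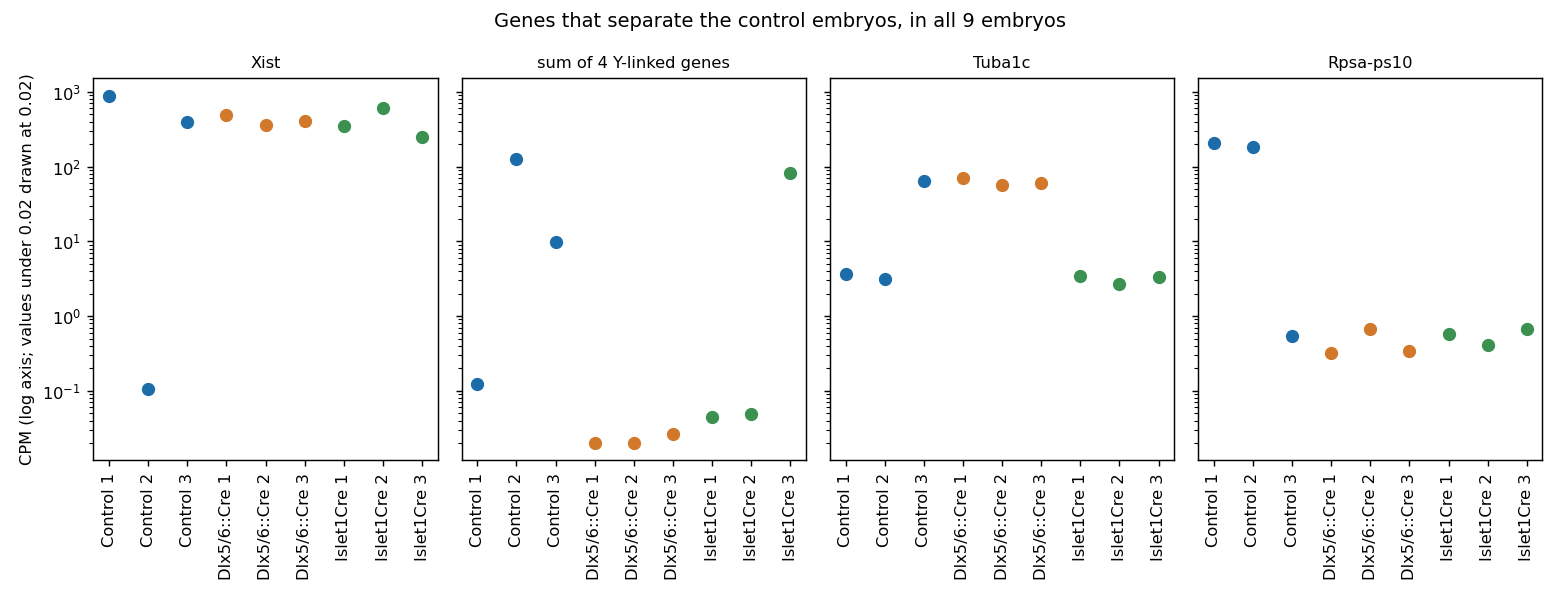
Level in CPM (vertical log axis) of Xist, the sum of 4 Y-linked genes, Tuba1c and Rpsa-ps10 in each of the 9 embryos, with controls in blue, Dlx5/6::Cre;Ebf1fl/- in orange and Islet1Cre;Ebf1fl/- in green. Control 3 has 396 CPM of Xist and 9.69 of Y-linked RNA, joins the Dlx5/6::Cre;Ebf1fl/- embryos for Tuba1c, and lacks the Rpsa-ps10 signal of controls 1 and 2.

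The lists of cortical and blood genes were highest in control 1, and the shared SPN list was lowest there. Of the 10 cortical excitatory genes, 9 fell in the order control 1, control 2, control 3, an order found for 22.4% of all tested genes, and all 10 were lowest in control 3. Eomes, a factor of cortical intermediate progenitors, at 7.66, 3.56 and 1.55 CPM and Neurod2, a factor of pallial neurons, at 25.4, 18.7 and 8.87 CPM. The list summed to 155, 106 and 68.9 CPM, and 108 to 318 CPM in the mutants, so control 3 was the lowest of the 9 embryos. The median log2 ratio of control 1 to control 3 was 1.47 over the members with a mean of at least 1 CPM, against 0.03 for all genes at that mean. None of the 10 passed the test of differences among the controls. The pallial factor Tbr1 was nevertheless far under Bcl11b, which was 24.4, 29.5 and 42.2 times as high per length.

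The shared SPN list ran in the opposite order, and the dSPN and iSPN lists did not, with sums of 1603, 1851 and 1672 CPM and of 636, 584 and 675 CPM. Of the 14 shared SPN genes, 13 were lowest in control 1, against 33.3% of all tested genes, Rgs9 being the exception. Rarb, a retinoic acid receptor of the striatum, was at 179, 181 and 255 CPM, and Gng7 at 339, 412 and 455 CPM. Of the exon bases of Rarb, 34.1% are also exon of Top2b on the opposite strand. The summed level of the list was 4986, 5681 and 5779 CPM. None of these genes passed the test of differences among the controls. The sums of the cortical and shared SPN lists moved against each other over the 3 embryos, and whether the dissections took in different amounts of cortex was not tested.

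**Figure D5:**
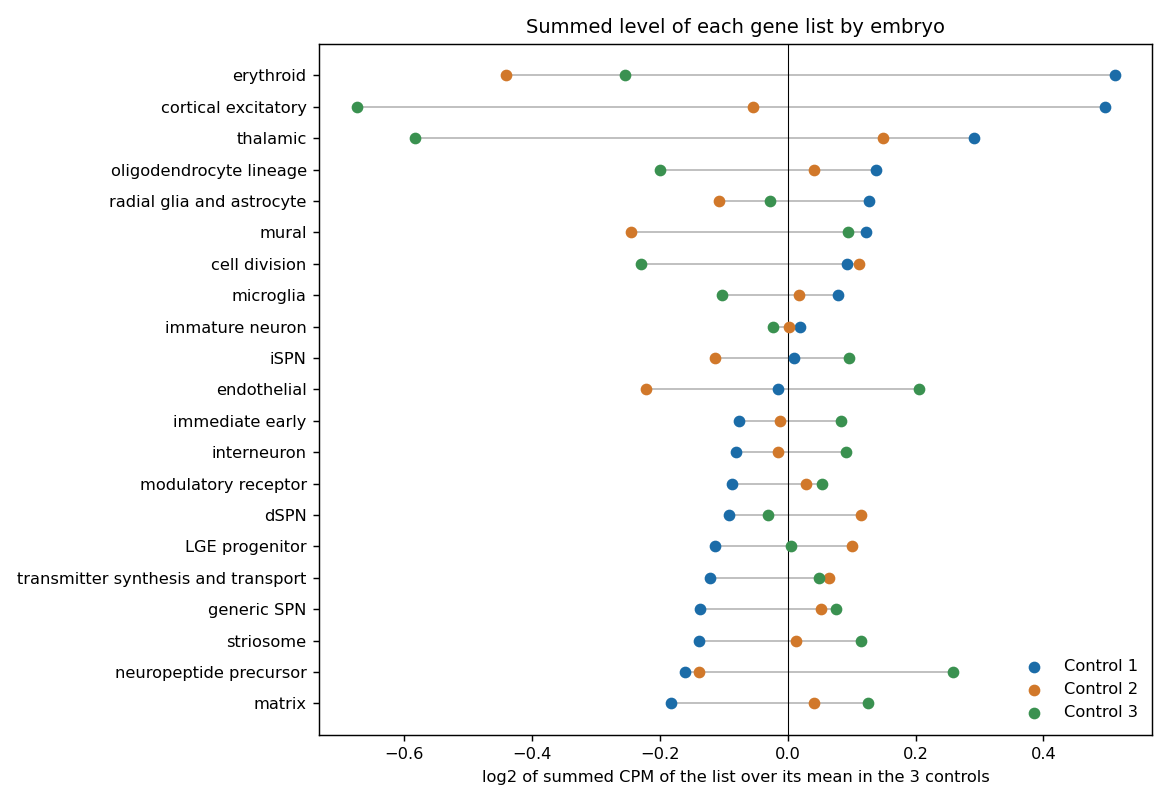
Summed CPM of each gene list in every control embryo, as log2 of the ratio to the mean of the 3 (horizontal axis). Control 1 is the highest for lists such as the erythroid, cortical excitatory and thalamic and the lowest for others such as the matrix, striosome and shared SPN lists, while the immature neuron list differs least.

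Red blood cell genes were highest in control 1. Hbb-bs, an adult beta-globin, was at 296, 161 and 177 CPM, and Hba-a1, an alpha-globin, at 156, 53.2 and 66.8 CPM, while Hba-a2 was at 34.5, 34.9 and 40.6 CPM. The alpha-globin pair shares most of its sequence, with 67.9% and 84.6% of its 75-base windows found in other genes, so their division between the genes is uncertain. Alas2, the heme synthesis enzyme of red cells, was at 16.0, 6.93 and 8.27 CPM, whereas the embryonic globin Hbb-y stayed under 0.31 CPM in every embryo. The erythroid list summed to 579, 299 and 340 CPM, and 275 to 391.6 CPM in the mutants. Hba-a1 had an adjusted p of 0.127 among the controls in edgeR's quasi-likelihood test, and the others had an adjusted p of 1 or were too low to test.

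Some abundant genes outside the lists, chosen after their values were seen, were also far from even. Of the 2574 genes at a mean of 100 CPM or more, Cmss1 was at 1963, 1035 and 515 CPM, Cdk8 at 2182, 1200 and 959 CPM, AC149090.1 at 517, 360 and 152 CPM and the nuclear RNA Malat1 at 187, 57.7 and 80.3 CPM, each highest in control 1. Gm42418, whose exons overlap a gene of the opposite strand over 99.5% of their bases, was at 2396, 975 and 2167 CPM. Peg10, an imprinted gene, was at 75.3, 244 and 178 CPM, below its range of 297 to 520 CPM in the mutants. Caln1, a neuronal calcium-binding protein, was at 170, 267 and 375 CPM. None of these had an adjusted p below 1 among the controls.

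With the mutants of both genotypes weighted equally, 256 genes were higher in controls (1.56% of 16368) and 196 were lower (1.2%) in edgeR's quasi-likelihood test, and DESeq2 called 781 in all. Adding the code prefix to the fit left 278 calls. Calls without each embryo ran from 178, without control 1, to 775, without Dlx5/6::Cre;Ebf1fl/- replicate 1, which differed from the other embryos of its genotype by a median of 0.240 and 0.264 on the log2 scale.

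Several dSPN genes were higher in controls. Of the 12 dSPN genes 5 were called higher in controls, against 1.56% of all genes, and none was called lower. The median log2 difference of the list was 0.71, against -0.0044 for all genes. Without a call, Drd1 was lower in controls by -0.60 (95% interval -1.05 to -0.15) and Eya1 by -0.52 (95% interval -0.87 to -0.18). Tac1, Pdyn, Isl1 and Foxp2 were higher without a call, by 0.82, 0.66, 0.20 and 0.16. The study names Plxnd1, Zfp521, Mef2c and Slc35d3 as deregulated in these same libraries, and the list was chosen with earlier results known. Its count and median are therefore no independent evidence. Plxnd1 was at 389 to 536 CPM in controls and 117 to 233 in mutants, a log2 difference of 1.63 (SE 0.14, adjusted p = 0.00038), and Zfp521, a zinc finger factor, differed by 1.72 (SE 0.14, adjusted p = 0.00038). Chrm4, Slc35d3 and Mef2c were also higher, with adjusted p from 0.0033 to 0.0053. The controls and the mutants did not overlap for any of these 5 genes, an arrangement with all controls above that 3.92% of tested genes had. The 5 were picked by the test on the same embryos, so this adds no separate evidence. Ebf1 itself was at 269 to 466 CPM in controls and 391 to 497 in mutants (log2 difference -0.37, 95% interval -0.72 to -0.02, adjusted p = 0.350). Without control 2 the difference of Ebf1 was -0.64 (edgeR, adjusted p = 0.035). Reads over the full locus cannot reveal the loss of some exons.

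The iSPN list had no call among its 7 genes, with a median log2 difference of -0.13. Of all genes, 2.76% were called in either direction, a share at which a list of 7 genes need not hold a call. Penk was at 133 to 168 CPM in controls and 107 to 210 in mutants, and Adora2a at 155 to 181 and 160 to 213. Their log2 differences had 95% intervals of -0.52 to 0.27 and -0.37 to 0.10. Of the 14 shared SPN genes 2 were called higher in controls by edgeR's quasi-likelihood test, against 1.56% of all genes. These were Foxp1 with a log2 difference of 0.43 (adjusted p = 0.035) and the phosphodiesterase Pde10a with 0.57 (adjusted p = 0.022). Foxp1 lost its call in 7 of 9 fits that left out an embryo (highest adjusted p = 0.208) and Pde10a in 5 of 9 (highest 0.129). Whether the dSPN and iSPN lists differ in this respect was not tested.

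Of the 148 listed genes outside the SPN lists that were tested, 4 were called (2.7%), close to the 2.76% of all genes called in either direction. Cdh8 of the matrix list was higher in controls by 1.03 on the log2 scale (adjusted p = 0.0038), Gal by 1.80 (adjusted p = 0.0037) and Adora1 by 0.78 (adjusted p = 0.0029), although 20.1% of the exon bases of Adora1 are also exon of Mybph on the opposite strand. Chrm3 was lower, at 2.27 to 2.92 CPM in controls and 16.6 to 25.7 in mutants, a log2 difference of -3.07 (SE 0.19, adjusted p = 0.00011). No gene of the cortical, thalamic, glial, vascular, erythroid, interneuron, progenitor or cell division lists was called. The cell division list summed to 147 to 186 CPM in controls and 166 to 681 in mutants. The top of the mutant range was far from its middle. Mki67 had a mutant median of 26.4 CPM and a highest value of 118, against 15.2 to 25.3 in controls. Top2a had a mutant median of 39.4 CPM and a highest value of 165, against 27.0 to 34.5 in controls.

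Nnat and Efnb3, named above for their levels, were lower in controls, by -0.42 (adjusted p = 0.036) and -0.35 (adjusted p = 0.042) in edgeR. Whether these calls, close to the threshold, hold under the alternative fits was not followed. The genes with the largest differences at a level of 5 CPM or more over the controls or over the mutants were named by the same rule, so that most of those lower in controls reached it only in the mutants. Those higher in controls included Atp6ap1l by 3.59, Brs3, a bombesin receptor, by 2.66, the adrenergic receptor Adra2b by 2.34, the collagens Col6a1 by 2.24 and Col25a1 by 1.99, the neurofilament Nefl by 2.21, Egfem1 by 2.05, Rgs4 by 1.98 and Ust by 1.92 on the log2 scale. Of the exon bases of Nefl, 32.8% are also exon of Nefm. Rgs4, a regulator of G protein signalling, was at 370 to 443 CPM in controls and 47.2 to 218 in mutants. Rpsa-ps10 led them with 8.08, or 4.42 with the code prefix in the fit, which controls 1 and 2 carried and control 3 did not. Those lower in controls included Chrm3, the secreted phosphoprotein Spp1 by -2.97, the vasopressin receptor Avpr1a by -2.40, the adenylyl cyclase Adcy8 by -2.33, Gfra1, a receptor of the GDNF family, by -2.31, Stk32a by -1.89, Lonrf3 by -1.84, the sorting receptor Sorcs3 by -1.83, Sdk1 by -1.76 and the potassium channel Kcnk13 by -1.76. Adjusted p of these genes ran from 0.00011 to 0.031 by edgeR's quasi-likelihood test, and Kcnk13, Spp1, Ust and Lonrf3 lost their call under some alternatives.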

How the data were processed

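Counts of 9 libraries of polyadenylated RNA, 1 per embryo, were used as deposited. Per the paper's methods and the submitters' processing notes, the authors trimmed and filtered reads, mapped them with STAR 2.4.0k to mm10, removed alignments at more than 1 position and counted reads per Ensembl gene with HTSeq 0.5.3. The deposited counts are whole numbers that no scaling has changed. Libraries were strand-specific (TruSeq Stranded mRNA), and overlaps of alignments with annotated genes were counted. The strand and feature options of the counting are not given in the sources used here. CPM were computed over all genes. Gene positions and exon lengths come from GENCODE M21 (GRCm38), which held 44133 of 44886 identifiers.

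Tests used edgeR 4.0.16 in R 4.3.3 on all 9 libraries: filterByExpr with a minimum count of 10, TMM scaling, the quasi-likelihood test and Benjamini-Hochberg adjustment at 0.05. Differences among controls gave each control its own level, with the spread from the mutant embryos within their genotypes. Those p-values set a difference between controls against that spread and do not measure the spread among controls. For controls against mutants, the spread came from the embryos within each genotype group. DESeq2 1.42.0 was an alternative. The test scripts were checked on simulated counts at the threshold of 0.05. False calls made up 6.79% of calls for control 3 against controls 1 and 2. They made up 7.39% for controls against mutants and 9.76% for differences among controls. Simulated 2-fold changes were recovered in 60% of cases for control 3 against controls 1 and 2 and in 91% for controls against mutants. Interval bounds are at 95% by the t distribution.

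Gene lists, families and naming rules were chosen with earlier results of these data known. Named genes were the 8 markers, the 10 highest nuclear protein-coding genes per kb, up to 4 highest and 2 lowest of each list (a part of these is printed), the highest of each family, the largest differences (10 up, 10 down) at 5 CPM or more in each comparison, listed genes past the threshold and the 5 listed genes with the largest and smallest CV. Results of some genes are not reported here.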

Additional observations from a re-analysis of the deposited data

How the results depend on the processing

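Of the counts of called genes, differences among the 3 controls gave 3 and, with no filter on low counts, 11, with DESeq2 23 and with a replicate block 1. Control 3 against controls 1 and 2 gave 2, and 7, 10 and 1 under the same alternatives. Leaving out 1 embryo gave 2 to 8 and 2 to 5 calls, the most without Dlx5/6::Cre;Ebf1fl/- replicate 1. Without control 3, Tuba1c and Rpsa-ps10 lost their calls among the controls, and without control 2 Xist did. Setting control 1 and control 2 against the other controls, chosen after seeing the data, gave 3 and 5. The comparison of controls against the 6 mutants gave 452, with DESeq2 781, with the code prefix as covariate 278 and without 1 embryo 178 to 775, while the replicate block gave 367. Equal replicate numbers did not mark pairs, with a mean correlation of deviations of -0.0235 against 0.0122 for unequal numbers. The cause of these moves was not tested. None of the 37 genes refitted against the mutants changed direction. Under the block Rpsa-ps10 lost its call among the controls (adjusted p = 0.176) and Xist did too (adjusted p = 0.116), and without Islet1Cre;Ebf1fl/- replicate 1 Xist had an adjusted p of 0.115. The number of expressed genes stayed within 1.5 times at 0.5 or 5 CPM. Of the mean levels of listed genes only that of Stmn2 moved by more than its SD, when CPM were taken over nuclear genes. Depth limits genes under 1 CPM, and 3 embryos limit every SD.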
